A study of Saccharomyces cerevisiae with 36 samples.

Results

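The genes described here are 34 of the 7122 gene lines counted in each library of yeast, Saccharomyces cerevisiae. They are the 28 lines whose common name is ATG followed by digits alone, together with 6 chosen by name: the vacuolar proteases PEP4, PRB1, PRC1 and CPS1, the proteinase B inhibitor PBI2 and the cell-surface protease YPS1. The rule of choice used names alone, though earlier results of these data were known when it was made. The cultures were grown in chemostats, vessels in which a steady feed sets the growth rate and a scarce nutrient holds the culture at a constant density. Transcripts were measured by RNA sequencing in 36 libraries, 12 groups of 3, which the design text calls biological triplicates.

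Each of 4 feeds was run in 3 sets of vessels. The feeds limited nitrogen with 6% glucose (N-lim), ethanol with 0.5% ethanol (Et-lim), glucose with 0.75% glucose (Glu-lim), or oxygen and glucose together with 1% glucose (OxGlu-lim). Cultures of the DASGIP tagged set filled DASGIP vessels of 1 L with the strain HAP1-TAP, built from CEN.PK 113-5D with a CBP-ProtA tag at the C-terminus of Hap1p, a regulator that responds to heme. HAP1-TAP also made up the MC tagged set, where MC is taken to stand for the mini-chemostat that the title of the series names. CEN.PK 113-5D without the tag was grown in MC vessels as the MC untagged set. All cultures had given constant readings for 48 to 60 h when they were sampled. N-lim and Glu-lim differed in the glucose of the feed as well as in the limiting nutrient, and neither growth rate nor any batch is given in the labels, so a set cannot be told apart from a batch that ran with it.

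Autophagy encloses cytoplasm, proteins or whole organelles in a membrane and delivers them to the vacuole, the degradative compartment of yeast. A kinase complex around Atg1 starts the process, Atg9 vesicles and a lipid kinase build the membrane, and the ubiquitin-like proteins Atg8 and Atg12 extend and close it. Receptors pick selected cargo, and vacuolar proteases break the contents down to amino acids for reuse. Nitrogen starvation is the classical inducer in yeast, through loss of TORC1 kinase activity and, for many of the genes, through transcription. Several of these genes and the vacuolar proteases are also known as targets of the GATA factors Gln3 and Gat1, which act when preferred nitrogen sources are scarce.

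GATA factors bind GATAAG and close relatives, so the 300 bases before each start codon were searched for GATAAG and for CTTATC, the same letters on the other strand. The sequences are those of the R64 reference, which is another strain than CEN.PK. A match was present in 15 of the 34 genes (44.1%) and in 880 of 6001 promoters of the same length (14.7%). The 15 were ATG4, ATG8, ATG9, ATG14, ATG15, ATG18, ATG19, ATG29, ATG32, ATG33, CPS1, PEP4, PRB1, PRC1 and YPS1. CPS1 held 2 matches, which share 1 base, and ATG32 held 3. The windows below are shown because they belong to genes that the nitrogen comparison turns on: CPS1, PRB1, ATG32 and ATG19, which were higher in N-lim, YPS1 and ATG9, which were lower, and ATG8 and PRC1, which did not pass the test. Each is written on the strand of its gene with the matching letters in capitals. They are chrX:97437-97636 (plus strand) for CPS1 and chrV:42054-42253 (minus strand) for PRB1, both from 300 to 101 bases before the start codon. The 30-base windows are chrIX:75823-75852 (minus) for ATG32, chrXV:168629-168658 (plus) for ATG19, chrXII:388247-388276 (minus) for YPS1, chrIV:184858-184887 (plus) for ATG9, chrII:80773-80802 (minus) for ATG8 and chrXIII:861772-861801 (plus) for PRC1.
CPS1: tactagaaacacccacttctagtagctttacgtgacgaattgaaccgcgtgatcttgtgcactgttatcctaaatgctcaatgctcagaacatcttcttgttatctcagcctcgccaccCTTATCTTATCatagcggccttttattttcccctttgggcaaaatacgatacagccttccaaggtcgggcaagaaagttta
PRB1: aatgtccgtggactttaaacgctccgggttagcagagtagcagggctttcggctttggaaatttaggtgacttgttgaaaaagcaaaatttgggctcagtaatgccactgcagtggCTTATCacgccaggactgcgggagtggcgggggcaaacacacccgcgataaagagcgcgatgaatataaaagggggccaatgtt
ATG32: ttgtgacttctCTTATCGATAAGcaatatt
ATG19: gatatgagtttGATAAGgtgtatcagacga
YPS1: cgtaataaaaaGATAAGgtgaacaccaagc
ATG9: tatctcactttGATAAGaagacatttaaga
ATG8: aggaggggattGATAAGagaatctaataat
PRC1: taaaagcacgaGATAAGaatgccagcaaaa

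In ATG32 the pair CTTATC and GATAAG lay side by side 68 and 62 bases before the start codon, and the other match lay 87 bases before it. ATG1 and ATG34 held none in this window. Other letters searched on both strands were TGACTC (bound by Gcn4) in 4 of the 34 genes (11.8%) against 7.77% of all promoters, GGCGGC (the core bound by Ume6) in 2 (5.88%) against 5.20%, and AGGGG (the stress response element) in 13 (38.2%) against 22.2%. These matches describe letters in a reference sequence, and binding was not measured.

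In units of 1e6 counted reads the libraries held 10.7 to 22.5 (median 16.7), and the lowest count of any of the 34 genes in any library was 56, for ATG16, so all 34 passed the filter on low counts. Genes that mark the feeds followed the labels. The allantoate transporter gene DAL5 had a median of 3573 CPM (counts scaled to 1e6 per library) in N-lim and 22.3 in Glu-lim, the gluconeogenic gene PCK1 2585 in Et-lim and 42.8 in Glu-lim, and the hypoxic gene TIR1 374 in OxGlu-lim and 3.95 in Glu-lim. Mitochondrially encoded genes took a median of 11.1% of the reads in N-lim, 22.2% in OxGlu-lim, 30.1% in Glu-lim and 37.6% in Et-lim. CPM here use library sizes scaled by TMM, a method that centres most genes on no change between libraries. Scaling by library totals alone moved the median of all genes by 0.43 on the log2 scale in N-lim against Glu-lim, by -0.21 in Et-lim and by 0.28 in OxGlu-lim. For these comparisons the counts over the 3 sets are also given with library totals alone. Genes that passed the test and then changed direction are listed near the end. Replicate 1 of DASGIP tagged Et-lim stood above its 2 partners for many of the 34 genes, such as PRC1 with 1006 CPM against 541 and 572, and results that rest on it are given with and without it. Replicate 3 of MC tagged N-lim also stood apart from replicates 1 and 2. Mitochondrially encoded genes took 15% of its reads against 10.1% and 9.19%, and PRC1 had 540 CPM against 791 and 679. These are bulk cultures, in which less RNA per cell and fewer cells using a gene cannot be told apart.

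The 34 genes took a median of 0.804% of the reads in N-lim, 0.413% in Glu-lim, 0.344% in OxGlu-lim and 0.330% in Et-lim. N-lim libraries held 0.682% to 0.945%, above each of the 27 other libraries, which held at most 0.501%. CPS1 and PRB1 made up much of the difference, with medians of 1721 and 1701 CPM in N-lim against 203 and 1042 in Glu-lim. Those CPM are scaled by TMM, under which 5 of the 34 genes were higher and 15 lower (34.3% and 37.4% of all genes). With library totals alone, the scale of the shares, 23 were higher and 5 lower. Among all genes called, 82.2% were then higher. These shares are of all counted reads, of which the mitochondrially encoded genes took a median of 11.1% in N-lim and 30.1% in Glu-lim. Levels per kilobase of coding sequence were highest for PBI2 and 3 of the vacuolar proteases. In Glu-lim the median level was 863 CPM per kb for PBI2, 546 for PRB1, 472 for PEP4 and 399 for PRC1. ATG8, whose protein coats the growing membrane, followed with 119 CPM per kb, close to CPS1 with 117 and YPS1 with 110. ATG1 stood at 81.3 CPM per kb, and the remaining ATG genes lay between 12.3 for ATG10 and 100 for ATG33. In N-lim this order changed at the top, with CPS1 at 994 CPM per kb beside PBI2 at 941 and PRB1 at 892.

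**Figure D1:**
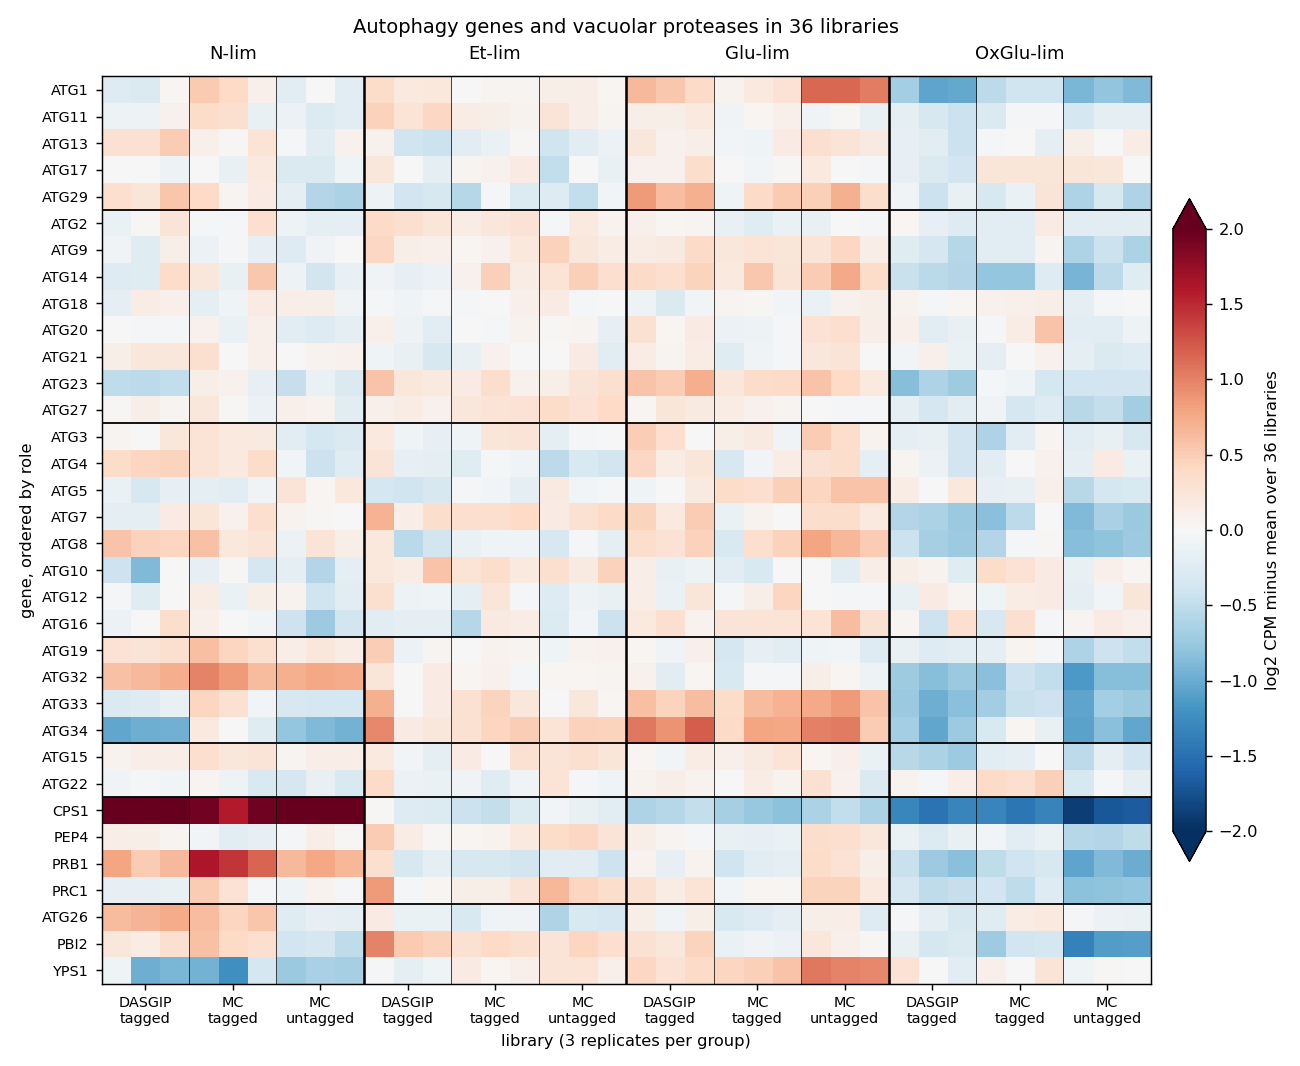
Each row is a gene and each column a library, grouped by feed and then by set with 3 replicates each, and colour gives log2 CPM minus the gene's mean over the 36 libraries, clipped at 2. CPS1 is red throughout N-lim, and most rows are blue in OxGlu-lim. Over the 3 sets 0 genes were called higher there than in Glu-lim under the scaling used here. In the MC tagged set by itself 4 were.

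Few of these genes were higher under nitrogen than under glucose limitation, a comparison that asks how the pathway's transcripts differ between these scarce nutrients. CPS1, which encodes carboxypeptidase S, was 7.93-fold higher, PRB1, encoding proteinase B, 1.90-fold, and ATG32, the mitophagy receptor, 1.72-fold. The core genes ATG8 and ATG13 did not pass the test, and ATG1 was lower. In all, 5 of the 34 genes were higher and 15 lower in N-lim than in Glu-lim over the 3 sets by edgeR's quasi-likelihood test at an adjusted p of 0.05, against 34.3% and 37.4% of all 6612 genes tested. The median log2 change was -0.15 for the 34 genes and -0.02 for all genes. Scaled by library totals alone 23 were higher and 5 lower, but the 34 genes still lay 0.13 below the all-gene median, with medians of 0.28 and 0.41. The share of higher among all genes called was 47.8%, and 82.2% with library totals alone. Called the same way in each of the 3 sets were 4 higher (CPS1, PRB1, ATG32 and ATG19) and 6 lower (ATG5, ATG9, ATG23, ATG33, ATG34 and YPS1), against 15.1% and 15.3% of all genes.

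CPS1 carried the largest change. In N-lim it had 1719, 2009 and 1721 CPM in the DASGIP tagged set, 1191, 939 and 1212 in the MC tagged set and 1968, 2184 and 2015 in the MC untagged set. In Glu-lim the same sets had 204, 211 and 224, then 198, 186 and 178, then 203, 222 and 202. Every N-lim library stood above every Glu-lim library, and the MC tagged libraries were the lowest of the N-lim ones. The log2 change was 2.99 ± 0.06 (SE, adjusted p = 4.3e-27), from 2.57 ± 0.10 in the MC tagged set to 3.30 ± 0.11 in the MC untagged set.

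PRB1 encodes the subtilisin-like protease that activates other vacuolar hydrolases. It had 1713, 1419 and 1554 CPM in the DASGIP tagged set under N-lim, 3052, 2669 and 2226 in the MC tagged set and 1562, 1701 and 1577 in the MC untagged set. In Glu-lim the values were 1042, 891 and 1042, then 758, 846 and 866, then 1284, 1215 and 1078. The groups did not overlap, and the MC tagged set had both the highest N-lim values and the lowest Glu-lim values. The log2 change was 0.93 ± 0.08 (adjusted p = 3.28e-12), made up of 0.66 ± 0.13, 1.69 ± 0.13 and 0.44 ± 0.13 in the 3 sets in that order. PEP4 and PRC1 did not pass the test. PEP4, encoding proteinase A, which starts the activation cascade, had a median of 565 CPM in N-lim and 575 in Glu-lim, and PRC1, encoding carboxypeptidase Y, 540 and 639. Their log2 changes were -0.07 ± 0.05 (adjusted p = 0.233) and -0.17 ± 0.08 (adjusted p = 0.069), and with library totals alone both passed as higher, at 0.36 (adjusted p = 3.18e-06) and 0.26 (adjusted p = 0.0108). PRC1 passed the test, at -0.20, without replicate 3 of MC untagged Glu-lim, and, at -0.22, without replicate 1 of MC tagged N-lim.

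The 4 receptor and mitophagy genes split evenly, 2 higher and 2 lower, and did so with library totals alone as well. ATG32, whose product marks mitochondria for degradation, ranged from 82.8 to 110 CPM in N-lim (median 91.1) and from 44.5 to 59.4 in Glu-lim (median 53.8). The groups did not overlap, and the log2 change was 0.78 ± 0.06 (adjusted p = 4.65e-13). ATG33, which encodes a mitochondrial outer membrane protein of the same pathway, was lower by contrast. Its median was 32.6 CPM in N-lim and 59.7 in Glu-lim, and its log2 change was -0.73 ± 0.08 (adjusted p = 1.82e-09).

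ATG19 and ATG34 encode related receptors of the cytoplasm-to-vacuole pathway and lie next to each other on chromosome XV, at 168727 to 169974 and 165714 to 166952. They went opposite ways. ATG19 ranged from 99.4 to 138 CPM in N-lim and from 72 to 97.8 in Glu-lim, a log2 change of 0.42 ± 0.06 (adjusted p = 2.14e-07). ATG34 had 20.6, 21.6 and 21.8 CPM in the DASGIP tagged set under N-lim, 48.6, 42.6 and 36.1 in the MC tagged set and 25, 23.1 and 22.2 in the MC untagged set. Its Glu-lim libraries held 55.4 to 98.2 CPM, so the groups did not overlap, and the MC tagged libraries were the N-lim libraries nearest to Glu-lim. The log2 change was -1.48 ± 0.09 (adjusted p = 8.87e-15), and -1.06 with library totals alone.

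Of the 5 initiation genes, 3 were lower in N-lim (ATG1, ATG17 and ATG29) and 0 higher, whereas library totals alone gave 3 higher and 1 lower. ATG1 encodes the kinase that starts autophagy. It had 127, 124 and 156 CPM in the DASGIP tagged set under N-lim, 218, 200 and 162 in the MC tagged set and 129, 150 and 129 in the MC untagged set. In Glu-lim the values were 238, 219 and 197, then 159, 174 and 186, then 334, 336 and 308. The sets disagreed: N-lim lay below Glu-lim without overlap in the DASGIP tagged and MC untagged sets, and the MC tagged values overlapped. The log2 changes were -0.69 ± 0.10 (adjusted p = 1.73e-06), 0.16 ± 0.10 (adjusted p = 0.185) and -1.26 ± 0.10 (adjusted p = 1.22e-11), and their mean was -0.59 ± 0.06 (adjusted p = 3.4e-10). ATG13, which encodes the TORC1-regulated partner of Atg1, had a median of 46.7 CPM in N-lim and 48.8 in Glu-lim (log2 change 0.02 ± 0.06, adjusted p = 0.827). ATG29, a subunit of the scaffold, had 11.2 and 14.4, but it overlaps the gene YPL165C and the counting of strand is not given, so its value is uncertain.

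Of the 8 genes for membrane supply and lipid, 4 were lower (ATG9, ATG14, ATG20 and ATG23) and 0 higher, while library totals alone gave 5 higher and 1 lower. ATG23 encodes a factor that moves Atg9 to the site of membrane formation. It ranged from 21.5 to 33.3 CPM in N-lim (median 25.2) and from 35.5 to 50.9 in Glu-lim (median 40.7), with no overlap and a log2 change of -0.70 ± 0.06 (adjusted p = 2.16e-11). ATG9, the membrane protein itself, held 63.8 to 83.3 CPM in N-lim and 83.5 to 102 in Glu-lim, so the groups stood just apart. Its log2 change was -0.34 ± 0.06 (adjusted p = 1.57e-05), but 0.09 with library totals alone.

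Of the 8 conjugation genes, 4 were lower (ATG3, ATG5, ATG10 and ATG16) and 0 higher, against 5 higher and 0 lower with library totals alone. ATG8 had 45.7, 42 and 41.3 CPM in the DASGIP tagged set under N-lim, 46.2, 35.5 and 36.5 in the MC tagged set and 28.3, 36.6 and 33.2 in the MC untagged set. In Glu-lim it had 39.2, 37.3 and 42, then 24.8, 38.8 and 42.1, then 52.8, 48.4 and 43.4. N-lim fell below Glu-lim in the MC untagged set, with a log2 change of -0.56 ± 0.17 (adjusted p = 0.00454), and overlapped it in the other sets. The mean was -0.09 ± 0.10 (adjusted p = 0.399), and 0.33 with library totals alone. ATG5, whose product is joined to Atg12, was lower in each set and had a mean log2 change of -0.38 ± 0.05 (adjusted p = 1.05e-07), but 0.05 (adjusted p = 0.42) with library totals alone.

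At the vacuolar end, ATG15, encoding the lipase that opens autophagic bodies, had a median of 75.1 CPM in N-lim and 73.5 in Glu-lim (log2 change 0.08 ± 0.05, adjusted p = 0.147). ATG22, linked to amino acid export from the vacuole, was lower, with a log2 change of -0.21 ± 0.07 (adjusted p = 0.0103), but 0.22 with library totals alone. YPS1, encoding a yapsin anchored at the cell surface, was lower in each set. It ranged from 58.5 to 128 CPM in N-lim and from 166 to 282 in Glu-lim, a log2 change of -1.31 ± 0.10 (adjusted p = 4.88e-13). ATG26 encodes a sterol glucosyltransferase that autophagy in yeast does not need. It was higher in N-lim in the DASGIP tagged set (log2 change 0.62 ± 0.11) and in the MC tagged set (0.79 ± 0.11), and in the MC untagged set it was -0.20 ± 0.11 (adjusted p = 0.114). PBI2 had a median of 215 CPM in N-lim and 197 in Glu-lim. Its mean log2 change was -0.03 ± 0.06 (adjusted p = 0.729), but 0.40 (adjusted p = 2.58e-05) with library totals alone. Its sets went opposite ways, with a log2 change of 0.55 ± 0.11 (adjusted p = 0.000107) in the MC tagged set and -0.52 ± 0.11 (adjusted p = 0.000152) in the MC untagged set.

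**Figure D2:**
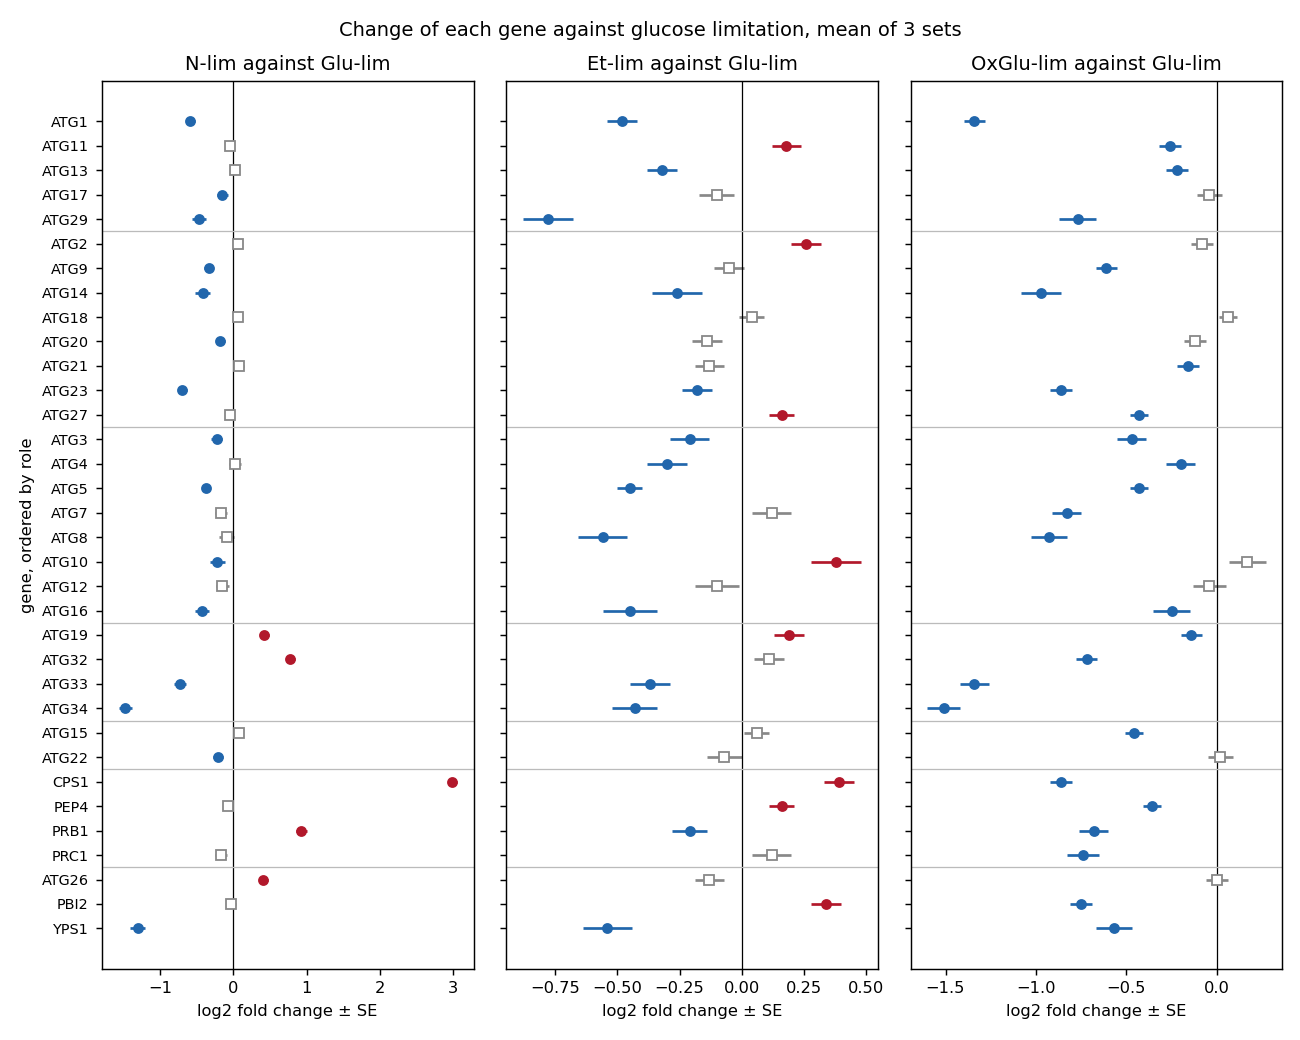
Points give the log2 fold change of each gene against Glu-lim over the 3 sets and bars its SE, with filled red circles for genes higher, filled blue circles for genes lower and open squares for genes that did not pass the adjusted p of 0.05, and the 3 panels have separate horizontal scales. The counts of higher and lower genes are 5 and 15 in N-lim, 8 and 14 in Et-lim, and 0 and 26 in OxGlu-lim, and with library totals alone 23 and 5, 1 and 23, and 8 and 18.

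The sets differed in how many of the genes moved. N-lim against Glu-lim gave 5 higher and 10 lower in the DASGIP tagged set (27.3% and 28.6% of all genes), 9 and 6 in the MC tagged set (27.2% and 28%), and 4 and 20 in the MC untagged set (29.4% and 32.8%). The median log2 change of the 34 genes was -0.16, 0.10 and -0.31 in that order, and that of all genes between -0.02 and -0.01.

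In Et-lim the log2 changes against Glu-lim lay between -0.78 and 0.39. CPS1 was 1.31-fold higher than in Glu-lim, and ATG8 was 1.48-fold lower. Over the 3 sets 8 genes were higher and 14 lower by edgeR's quasi-likelihood test, against 30.6% and 28.7% of all genes, and the median log2 change was -0.12 against 0.01 for all genes. Library totals alone left CPS1 as the 1 gene higher and 23 lower, with the 34 genes 0.12 below the all-gene median, and the share of higher among all genes called went from 51.6% to 17%. Without replicate 1 of DASGIP tagged Et-lim the counts were 8 higher and 17 lower. Called in each set were 1 higher (CPS1, which was not called in every set with library totals alone) and 2 lower (ATG5 and ATG29), against 8.41% and 7.58% of all genes. The 2 became 1 without replicate 1 of MC tagged Et-lim or replicate 3 of MC tagged Glu-lim.

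CPS1 had 320, 263 and 258 CPM in DASGIP tagged Et-lim, 233, 226 and 258 in the MC tagged set and 301, 283 and 267 in the MC untagged set. All stood above the Glu-lim range of 178 to 224, and the log2 change was 0.39 ± 0.06 (adjusted p = 6.29e-07). ATG10, encoding the enzyme that joins Atg12 to Atg5, ranged from 7.37 to 9.86 CPM in Et-lim and from 5.4 to 7.33 in Glu-lim, just clear of each other. Its log2 change was 0.38 ± 0.10 (adjusted p = 0.0012), and 0.17 (adjusted p = 0.152) with library totals alone. ATG10, CPS1 and, below Glu-lim, YPS1 were the 3 of the 34 genes without overlap between the 9 libraries of each feed, 2 above and 1 below (6.81% and 6.61% of all genes).

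PBI2 was higher with 221 to 366 CPM in Et-lim against 168 to 251 in Glu-lim, a log2 change of 0.34 ± 0.06 (adjusted p = 3.72e-05). ATG2, whose product transfers lipid into the growing membrane, was higher by 0.26 ± 0.06 (adjusted p = 0.000276). The changes of PEP4 at 0.16 ± 0.05 (adjusted p = 0.00589) and ATG19 at 0.19 ± 0.06 (adjusted p = 0.00631) were smaller, and with library totals alone they were -0.04 and -0.01. PRB1 was lower by -0.21 ± 0.07 (adjusted p = 0.0186), mainly in the MC untagged set (-0.53 ± 0.13), and it missed the threshold (adjusted p = 0.0544) without replicate 2 of DASGIP tagged Et-lim. PRC1 did not pass the test at 0.12 ± 0.08 (adjusted p = 0.21).

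The 14 lower genes included 5 of conjugation and 3 of initiation, and the other 6 were ATG14, ATG23, ATG33, ATG34, PRB1 and YPS1. ATG29 was lowest with a log2 change of -0.78 ± 0.10 (adjusted p = 8.79e-08), with the doubt about its overlap with YPL165C. ATG8 ranged from 21 to 35.5 CPM in Et-lim (median 28) and from 24.8 to 52.8 in Glu-lim (median 42), a log2 change of -0.56 ± 0.10 (adjusted p = 1.28e-05). The ranges overlapped because replicate 1 of MC tagged Glu-lim, at 24.8 CPM, and replicate 1 of DASGIP tagged Et-lim, at 35.5, lay away from their partners. ATG1 had 151 to 196 CPM in Et-lim, which fell inside the Glu-lim range of 159 to 336 apart from its lowest values. Its log2 change was -0.48 ± 0.06 (adjusted p = 7.36e-08), and the MC untagged set gave -1.01 ± 0.10 while the MC tagged set gave -0.16 ± 0.10 (adjusted p = 0.22). ATG13 was lower by -0.32 ± 0.06 (adjusted p = 9.13e-05), YPS1 by -0.54 ± 0.10 (adjusted p = 1.94e-05) and ATG5 by -0.45 ± 0.05 (adjusted p = 1.1e-08), and ATG9 did not pass the test at -0.05 ± 0.06 (adjusted p = 0.513).

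By role, 3 of 5 initiation genes were lower and 1 (ATG11, the scaffold of selective autophagy) higher. Of 8 conjugation genes 5 were lower and 1 higher, of 8 membrane genes 2 lower and 2 higher, of 4 receptors 2 lower and 1 higher, and of 4 proteases 1 lower and 2 higher. With library totals alone the numbers lower and higher were 4 and 0, 6 and 0, 6 and 0, 2 and 0, and 1 and 1. Within sets, Et-lim against Glu-lim gave 2 higher and 8 lower in the DASGIP tagged set (16.9% and 15.4% of all genes), 7 and 2 in the MC tagged set (24.8% and 21.8%) and 3 and 14 in the MC untagged set (19% and 18.7%).

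Oxygen and glucose limitation together went with lower levels of most of these genes. Of the 34, 26 were lower than in Glu-lim and 0 higher by edgeR's quasi-likelihood test, against 32.3% and 32.9% of all genes, and the median log2 change was -0.44 against 0.01 for all genes. DESeq2 also called 0 higher. By edgeR the 26 lower genes were the ones that passed at an unadjusted p under 0.05. Library totals alone gave 8 higher and 18 lower, with the 34 genes 0.46 below the all-gene median, and the share of higher among all genes called went from 50.5% to 81.6%. In each of the 3 sets 13 were lower and 0 higher, against 11.5% and 10.3% of all genes. By set, DASGIP tagged gave 0 higher and 22 lower (21.7% and 22.7% of all genes), MC tagged 4 and 14 (22.5% and 22.6%), and MC untagged 0 and 23 (29.2% and 29%).

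The largest falls were in a receptor, the kinase and a mitophagy gene. ATG34 held 20.2 to 43.6 CPM in OxGlu-lim (median 25.7) and 55.4 to 98.2 in Glu-lim (median 79.7), with a log2 change of -1.51 ± 0.09 (adjusted p = 1.17e-14). ATG1 had 94.7, 72.8 and 74.7 CPM in the DASGIP tagged set, 105, 115 and 115 in the MC tagged set and 80.2, 88 and 81.8 in the MC untagged set. All 9 lay below the lowest Glu-lim value of 159. The log2 change was -1.34 ± 0.06 (adjusted p = 3.68e-18), and it ran from -0.63 ± 0.10 in the MC tagged set to -1.97 ± 0.11 in the MC untagged set. ATG33 fell from a median of 59.7 to 23.4 CPM, with a log2 change of -1.34 ± 0.08 (adjusted p = 5.3e-15).

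All 4 receptor and mitophagy genes were lower (3 with library totals alone and 0 higher). ATG32 ranged from 24.9 to 41.5 CPM against 44.5 to 59.4 in Glu-lim, with no overlap and a log2 change of -0.72 ± 0.06 (adjusted p = 8.55e-12). Of the 8 conjugation genes 6 were lower and 0 higher, against 3 lower and 2 higher with library totals alone. ATG8 had 17 to 31 CPM (median 19.4) against a Glu-lim median of 42. Its log2 change was -0.93 ± 0.10 (adjusted p = 1.7e-09), with -1.45 ± 0.17 in the MC untagged set and -0.37 ± 0.17 (adjusted p = 0.0744) in the MC tagged set. ATG10 stood apart in direction at 0.17 ± 0.10 (adjusted p = 0.132). Of the 5 initiation genes 4 were lower, and of the 8 membrane genes 5, with 0 higher in either, against 2 lower and 1 higher, and 4 lower and 3 higher, with library totals alone.

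ATG14 encodes the subunit that commits the lipid kinase to autophagy. It had 5.16 to 8.3 CPM in OxGlu-lim and 11.2 to 16.6 in Glu-lim, a log2 change of -0.97 ± 0.11 (adjusted p = 2.36e-09). ATG9 was lower by -0.61 ± 0.06 (adjusted p = 1.03e-09), without overlap between the feeds. ATG13 was lower by -0.22 ± 0.06 (adjusted p = 0.00424), but 0.06 (adjusted p = 0.457) with library totals alone.

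All 4 proteases were lower as well (3 with library totals alone, with PEP4 at -0.08, adjusted p = 0.253). CPS1 had 127, 113 and 125 CPM in the DASGIP tagged set, 126, 115 and 124 in the MC tagged set and 85.2, 96.6 and 99.3 in the MC untagged set. Each was below the lowest Glu-lim value of 178, and the log2 change was -0.86 ± 0.06 (adjusted p = 3.16e-14). PRC1 ranged from 315 to 466 CPM against 536 to 760 in Glu-lim, again without overlap, a log2 change of -0.74 ± 0.09 (adjusted p = 7.34e-09). PRB1 was lower by -0.68 ± 0.08 (adjusted p = 3.64e-09), from -1.24 ± 0.13 in the MC untagged set to -0.14 ± 0.13 (adjusted p = 0.399) in the MC tagged set. PEP4 was lower by -0.36 ± 0.05 (adjusted p = 2.88e-07), and in the MC tagged set its change was 0.02 ± 0.09 (adjusted p = 0.895). The inhibitor PBI2 held 72.1 to 166 CPM against 168 to 251 in Glu-lim, just below it, with a log2 change of -0.75 ± 0.06 (adjusted p = 1.08e-11). YPS1 was lower by -0.57 ± 0.10 (adjusted p = 7.05e-06), and ATG26 had a fold change of 0.997 (adjusted p = 0.949). In all, 11 of the 34 genes had 9 OxGlu-lim libraries below all 9 Glu-lim libraries and 0 had them above (9.83% and 8.48% of all genes). The same count in N-lim was 4 below and 4 above (12% and 11.5% of all genes).

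**Figure D3:**
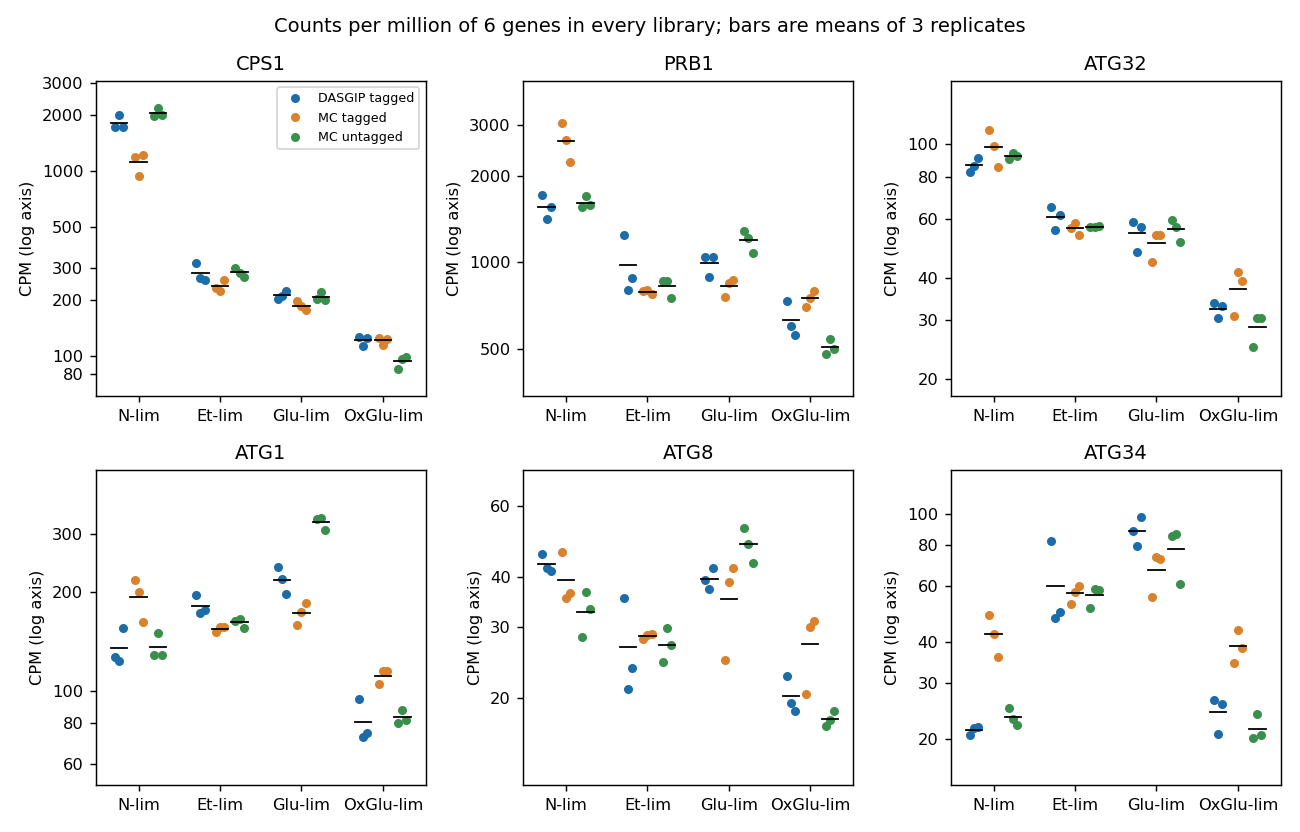
CPM of 6 genes in every library on log axes, with a point per library coloured by set and a bar at the mean of each group of 3. CPS1, PRB1 and ATG32 have their highest median in N-lim and their lowest in OxGlu-lim, ATG34 is low in both of these feeds, and for ATG1 the MC untagged libraries are the highest in Glu-lim at 308 to 336 CPM.

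The limitation comparisons above share the Glu-lim libraries, so the feeds were also set against each other directly. N-lim exceeded OxGlu-lim in 24 of the 34 genes and was lower in 3 (35.4% and 36% of all genes), with a median log2 difference of 0.25, and without replicate 1 of MC tagged OxGlu-lim 5 were lower. The largest differences were 3.85 for CPS1 and 1.60 for PRB1, and the 3 lower genes were YPS1, ATG10 and ATG22. Et-lim exceeded OxGlu-lim in 21 genes and was lower in 0 (35.7% and 36.1% of all genes), with 1.26 for CPS1, 1.09 for PBI2 and 1.08 for ATG34. DESeq2 gave 0 lower there too. By edgeR 21 genes passed at an unadjusted p under 0.05, and 3 were lower without replicate 1 of DASGIP tagged Et-lim. The number lower was 2 without replicate 1 of MC tagged OxGlu-lim, and 1 without replicate 2 of MC tagged Et-lim or replicate 2 or 3 of DASGIP tagged OxGlu-lim. Library totals alone gave 9 higher and 16 lower there, and the share of higher among all genes called went from 49.7% to 11.6%. N-lim against Et-lim gave 10 higher and 13 lower (37.4% and 36.7% of all genes), and with library totals alone 30 and 1, as the share of higher among all genes called went from 50.5% to 88.1%. In N-lim against Et-lim the lowest log2 differences were those of ATG34 (-1.06), YPS1 (-0.77) and ATG10 (-0.59), and the highest those of CPS1 (2.59), PRB1 (1.13) and ATG32 (0.67). For N-lim against OxGlu-lim the share of higher went from 49.6% to 65.3%.

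Other genes of the pathway were read from lists of named genes, by counts and medians from the same fit. Of all genes, 34.3% were higher and 37.4% lower in N-lim than in Glu-lim (median log2 change -0.02). The shares were 30.6% and 28.7% in Et-lim (median 0.01), and 32.9% and 32.3% in OxGlu-lim (median 0.01). The counts of every list below are to be read against these shares. Of 10 further vacuolar hydrolases, 5 were higher and 5 lower in N-lim than in Glu-lim (median log2 change -0.00 against -0.02 for all genes). PHO8, the alkaline phosphatase, was higher by 0.91 ± 0.05 (adjusted p = 1.4e-16), as was DAP2, a dipeptidyl aminopeptidase, by 0.91 ± 0.04 (adjusted p = 2.07e-19), and ATH1, the acid trehalase, was lower by -1.96 ± 0.07 (adjusted p = 1.23e-20). In Et-lim 5 were higher and 2 lower, led by PHO8 at 0.45 ± 0.05 and LAP4, which encodes the aminopeptidase carried by Atg19, at -0.73 ± 0.07 (adjusted p = 1.01e-09). In OxGlu-lim 8 were lower and 0 higher (median -0.46 against 0.01), with ATH1 at -1.06 ± 0.07. Library totals alone gave 7 higher and 2 lower in N-lim, 1 and 4 in Et-lim, and 3 and 6 in OxGlu-lim.

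The list of 3 other protease inhibitors had the lowest median of the lists in N-lim, a log2 change of -3.29 against -0.02 for all genes. PBI1, which the tables list as YPL272C, was placed here by its RefSeq name, and whether its product inhibits a protease was not tested. PBI1 had a median of 311 CPM in Glu-lim, 293 in OxGlu-lim, 15.7 in Et-lim and 9.52 in N-lim. Its ranges in N-lim (8.01 to 15.5) and Glu-lim (194 to 396) lay far apart, and its log2 change was -4.92 ± 0.11 (adjusted p = 6.72e-26) in N-lim and -4.27 ± 0.11 (adjusted p = 6.65e-24) in Et-lim. PAI3, the inhibitor of proteinase A, was lower by -3.29 ± 0.16 in N-lim and -2.80 ± 0.16 in OxGlu-lim. TFS1, the inhibitor of carboxypeptidase Y, was lower in each feed, by -1.18 ± 0.13 in N-lim (adjusted p = 1.93e-09), -0.92 in Et-lim and -1.62 in OxGlu-lim. The list counts were 3 lower in N-lim, 3 in Et-lim and 2 in OxGlu-lim with 0 higher in any, while library totals alone made 1 higher in OxGlu-lim.

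Of the 5 other yapsins 4 were lower in N-lim and 0 higher (37.4% and 34.3% of all genes), led by YPS3 at -0.75 ± 0.12 (adjusted p = 2.99e-06). In OxGlu-lim 4 were higher and 0 lower (32.9% and 32.3% of all genes). YPS5 was 1.28 ± 0.23 (adjusted p = 1.23e-05) in OxGlu-lim and 1.38 ± 0.22 (adjusted p = 4.18e-06) in Et-lim, at CPM of 0.427 to 4.62 over those feeds and Glu-lim. Et-lim gave 2 higher and 2 lower, with YPS3 at -0.89. With library totals alone N-lim gave 1 higher and 1 lower and OxGlu-lim 5 higher.

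Of the 15 genes of the vacuolar ATPase, which acidifies the vacuole, all 15 were higher in N-lim, with library totals alone as well, and the median log2 change was 0.85 against -0.02 for all genes. VMA1, the catalytic subunit, ranged from 1187 to 1501 CPM in N-lim and from 468 to 613 in Glu-lim (log2 change 1.25 ± 0.04, adjusted p = 1.49e-22), and STV1, the Golgi form of a membrane subunit, changed least at 0.11 ± 0.05 (adjusted p = 0.0451). In Et-lim 8 were lower and 0 higher, led by VMA13 at -0.51 ± 0.04 (adjusted p = 4.57e-12), and with library totals alone 15 were lower. In OxGlu-lim 9 were higher and 0 lower, led by STV1 at 0.52 ± 0.05 (adjusted p = 1.17e-10), and with library totals alone 15 were higher.

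TORC1, the complexes above it and TAP42 together had 9 of 10 genes higher in N-lim and 1 lower (median 0.56). IML1, part of the complex that restrains TORC1 when amino acids are scarce, was higher by 1.18 ± 0.04 (adjusted p = 1.29e-21), and LST8 was lower by -0.35 ± 0.05 (adjusted p = 8.02e-07). Et-lim gave 4 higher and 2 lower, with TOR1 at 0.39 ± 0.04 and GTR1 at -0.29 ± 0.05. OxGlu-lim gave 1 higher, KOG1 at 0.11 ± 0.04, and 2 lower, with NPR2 at -0.26 ± 0.06. With library totals alone the numbers were 9 higher and 0 lower in N-lim, 2 and 4 in Et-lim, and 8 and 0 in OxGlu-lim.

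Of 10 regulators of ATG transcription, 5 were higher and 2 lower in N-lim (median 0.12), against 10 and 0 with library totals alone. GAT1, encoding a GATA factor, ranged from 203 to 321 CPM in N-lim and from 64.8 to 101 in Glu-lim, a log2 change of 1.75 ± 0.07 (adjusted p = 2.3e-19), and in OxGlu-lim it was lower by -1.13 ± 0.07 (adjusted p = 2.6e-14). MSN4, a stress factor that binds AGGGG, was higher by 2.29 ± 0.06 (adjusted p = 1.94e-23) in N-lim and 1.23 ± 0.06 in OxGlu-lim. The repressor gene UME6 was lower in N-lim by -0.26 ± 0.05 (adjusted p = 1.57e-05). In Et-lim 2 were higher, led by GCN4 at 0.32 ± 0.05, and 5 lower, led by the repressor gene RPH1 at -0.58 ± 0.05 (adjusted p = 7.4e-11), and in OxGlu-lim 1 was higher and 6 lower. Library totals alone gave 0 higher and 7 lower in Et-lim and 5 and 2 in OxGlu-lim.

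Of 6 genes for lipid kinase complexes and sorting nexins, 2 were higher and 2 lower in N-lim, from SNX41 at 0.51 ± 0.09 to VPS30 at -0.20 ± 0.06 (6 higher with library totals alone). In Et-lim 1 was higher, VPS15 at 0.18 ± 0.04 (0 higher and 3 lower with library totals alone). In OxGlu-lim 5 were lower, led by SNX4 at -0.50 ± 0.06 (adjusted p = 1.65e-08), and 1 higher, VPS38 at 0.11 ± 0.04 (1 and 1 with library totals alone). Vacuole docking and fusion had 15 genes, with 8 higher and 4 lower in N-lim, from the SNARE gene VAM3 at 0.63 ± 0.05 to the SNARE gene NYV1 at -0.72 ± 0.04, 5 and 3 in Et-lim, from VAM6 at 0.26 ± 0.04 to NYV1 at -0.43 ± 0.04, and 6 and 2 in OxGlu-lim, from VAM3 at 0.34 ± 0.05 to VTI1 at -0.48 ± 0.05. Those pairs became 12 and 1, 0 and 8, and 13 and 1 with library totals alone.

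In RefSeq 11 genes carry an ATG name but have another name in the count tables, and they were listed after the tables were seen. They include ATG24 (SNX4) and ATG6 (VPS30), already counted above among the lipid kinase complexes and sorting nexins. In N-lim 9 were lower and 1 higher (median log2 change -0.54), and in OxGlu-lim 10 were lower and 0 higher (median -0.50). ATG41, which acts with Atg9 in forming the membrane, was lower in N-lim by -1.57 ± 0.10 (adjusted p = 3.35e-14), and ATG36, the receptor for peroxisomes, by -1.34 ± 0.07 (adjusted p = 1.02e-16). ATG42, encoding a carboxypeptidase Y homologue, was the 1 higher at 0.66 ± 0.08 (adjusted p = 2.28e-08). ATG39, the receptor for the nuclear envelope, was higher by 1.07 ± 0.09 (adjusted p = 4.37e-11) in Et-lim, where 5 were higher and 2 lower, and lower by -1.89 ± 0.10 (adjusted p = 1.06e-16) in OxGlu-lim. Library totals alone gave 4 higher and 5 lower in N-lim, 2 and 4 in Et-lim, and 0 and 6 in OxGlu-lim.

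Markers of mating type and of meiosis also moved with the feeds, and their counts are to be read against the same shares of all genes. All 5 MATa genes (MFA1, MFA2, STE2, BAR1 and AGA2) were higher in N-lim and in OxGlu-lim, with library totals alone as well, and 4 were higher and 0 lower in Et-lim (4 and 1 with library totals alone). MFA2 had a median of 555 CPM in N-lim and 28 in Glu-lim. Of the 2 MATalpha genes, MF(ALPHA)1 had a median of 77.2 CPM in N-lim and 3.24 in Glu-lim, and STE3 8.81 and 11.1. Of 4 meiosis genes 1 was higher (SPS4, with 41.6 CPM against 2.84) and 3 lower in N-lim, 3 higher in Et-lim and 3 higher in OxGlu-lim, against 2 higher and 1 lower, 2 higher, and 3 higher with library totals alone. Their part in the results for the 34 genes was not tested.

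The vessel comparison took MC tagged minus DASGIP tagged libraries, which share the strain. Over the 4 feeds 5 of the 34 genes were higher and 3 lower in the MC vessels, against 17.1% and 17.3% of all genes, and the largest mean log2 differences were 0.30 ± 0.08 (adjusted p = 0.00496) for ATG34, -0.28 ± 0.05 (adjusted p = 5e-05) for CPS1 and 0.24 ± 0.05 (adjusted p = 0.000131) for ATG15. With library totals alone 1 was higher and 6 lower, and the share of higher among all genes called was 20.4%, against 49.7% here and 62.5% with upper-quartile factors. The difference varied with the feed in 12 of the 34 genes by the interaction test, against 24.1% of all genes.

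In N-lim 6 genes were higher and 2 lower in the MC vessels (10.6% and 7.74% of all genes, 18.3% in either direction). ATG34 was higher by 0.99 ± 0.16 (adjusted p = 7.24e-05), with 36.1 to 48.6 CPM against 20.6 to 21.8, and PRB1 by 0.76 ± 0.13 (adjusted p = 0.000107), with 2226 to 3052 against 1419 to 1713. CPS1 went the other way at -0.71 ± 0.10 (adjusted p = 5.13e-06), with 939 to 1212 CPM against 1719 to 2009. None of the 3 overlapped. The count of 8 became 5 with library totals alone, 4 with the compared libraries alone, and 5 without replicate 1 or 2 of DASGIP tagged N-lim.

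In OxGlu-lim 6 were higher and 0 lower (8.91% and 8.73% of all genes, 17.6% in either direction), led by ATG34 at 0.68 ± 0.17 (adjusted p = 0.00506) and ATG23 at 0.58 ± 0.11 (adjusted p = 0.000594). In Glu-lim 1 was higher and 4 lower (9.21% and 11.9% of all genes, 21.1% in either direction). The count of 5 became 2 without replicate 1 of either set and 3 without replicate 3 of DASGIP tagged or replicate 2 of MC tagged Glu-lim. It was 15 with library totals alone, 10 with the compared libraries alone and 2 with upper-quartile factors. PBI2 was lower there at -0.44 ± 0.11 (adjusted p = 0.00501), with 168, 176 and 171 CPM in MC vessels and 229, 216 and 251 in the DASGIP vessel, and ATG7, the activating enzyme of conjugation, at -0.41 ± 0.14 (adjusted p = 0.0321). The ATG7 call was lost without any of 4 of the 6 libraries, replicate 1 or 3 of either set. ATG1 was lower in Glu-lim at -0.33 ± 0.10 (adjusted p = 0.0206) and higher in N-lim at 0.51 ± 0.10 (adjusted p = 0.000665) and in OxGlu-lim at 0.47 ± 0.11 (adjusted p = 0.00237), and its difference varied with the feed (adjusted p = 5.46e-05). In Et-lim 1 gene was higher and 1 lower (5.82% and 6% of all genes, 11.8% in either direction), with PBI2 at -0.33 ± 0.11 (adjusted p = 0.0449) and ATG5 at 0.27 ± 0.09 (adjusted p = 0.0483). Without replicate 1 of DASGIP tagged Et-lim the changes were -0.14 (adjusted p = 0.365) and 0.27 (adjusted p = 0.0741), and without any 1 of the MC tagged Et-lim replicates neither was called.

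The strain comparison took MC tagged minus MC untagged libraries, which share the vessel type, so it also shares its MC tagged libraries with the vessel comparison. Over the 4 feeds 6 genes were higher and 1 lower in the tagged strain, against 8.38% and 9.77% of all genes. The 1 became 2 without replicate 3 of either MC set in Et-lim or replicate 1 or 3 of MC tagged N-lim. The largest mean log2 differences were 0.38 ± 0.08 (adjusted p = 0.00155) for ATG34, 0.33 ± 0.05 (adjusted p = 0.000111) for PBI2 and 0.24 ± 0.07 (adjusted p = 0.0155) for ATG33. Library totals alone, which moved the median of all genes by 0.15, gave 26 higher and 0 lower. The share of higher among all genes called was 95.6% there, 67.6% with upper-quartile factors, 56.8% with nuclear reading frames only and 46.2% here. The strain difference varied with the feed in 23 of the 34 genes, against 47.7% of all genes.

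In N-lim 16 genes were called, 14 higher and 2 lower (17.1% and 15.4% of all genes, 32.4% in either direction). ATG34 was higher by 0.86 ± 0.16 (adjusted p = 0.000268), PBI2 by 0.85 ± 0.11 (adjusted p = 2.25e-06) and ATG26 by 0.73 ± 0.11 (adjusted p = 1.57e-05). CPS1 was lower by -0.88 ± 0.10 (adjusted p = 2.74e-07), since its untagged libraries held 1968 to 2184 CPM and its tagged libraries 939 to 1212. In OxGlu-lim 16 were higher and 0 lower (12.3% and 11.7% of all genes, 24.1% in either direction), led by ATG34 at 0.85 ± 0.17 (adjusted p = 0.000618) and PBI2 at 0.71 ± 0.11 (adjusted p = 5.92e-05). PBI2 had 113, 141 and 145 CPM in the tagged strain and 72.1, 85.5 and 86.1 in the untagged strain there, without overlap. Without replicate 3 of MC tagged OxGlu-lim 10 genes were called in place of 16.

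Glu-lim went the other way, with 7 lower and 0 higher (14.4% and 8.17% of all genes, 22.5% in either direction). The count was 3 without replicate 1 or 2 of either MC tagged or MC untagged Glu-lim, 3 with library totals alone and 4 with upper-quartile factors. ATG1 was lower by -0.92 ± 0.10 (adjusted p = 5.34e-07), with 159, 174 and 186 CPM in the tagged strain and 334, 336 and 308 in the untagged strain. PRB1 was lower by -0.53 ± 0.13 (adjusted p = 0.00441) and PEP4 by -0.45 ± 0.09 (adjusted p = 0.000586), and both were higher in the tagged strain in OxGlu-lim, by 0.57 ± 0.13 and 0.42 ± 0.09. The interaction test gave adjusted p = 9.67e-08 for ATG1, 1.89e-05 for PRB1 and 2.65e-05 for PEP4. In Et-lim 0 of the 34 genes were called by edgeR (0.166% of all genes higher and 0.106% lower, 0.272% in either direction) and 0 by DESeq2. The edgeR fit had 5 at an unadjusted p under 0.05 and log2 differences from -0.32 to 0.30, and library totals alone gave 7 calls.

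**Figure D4:**
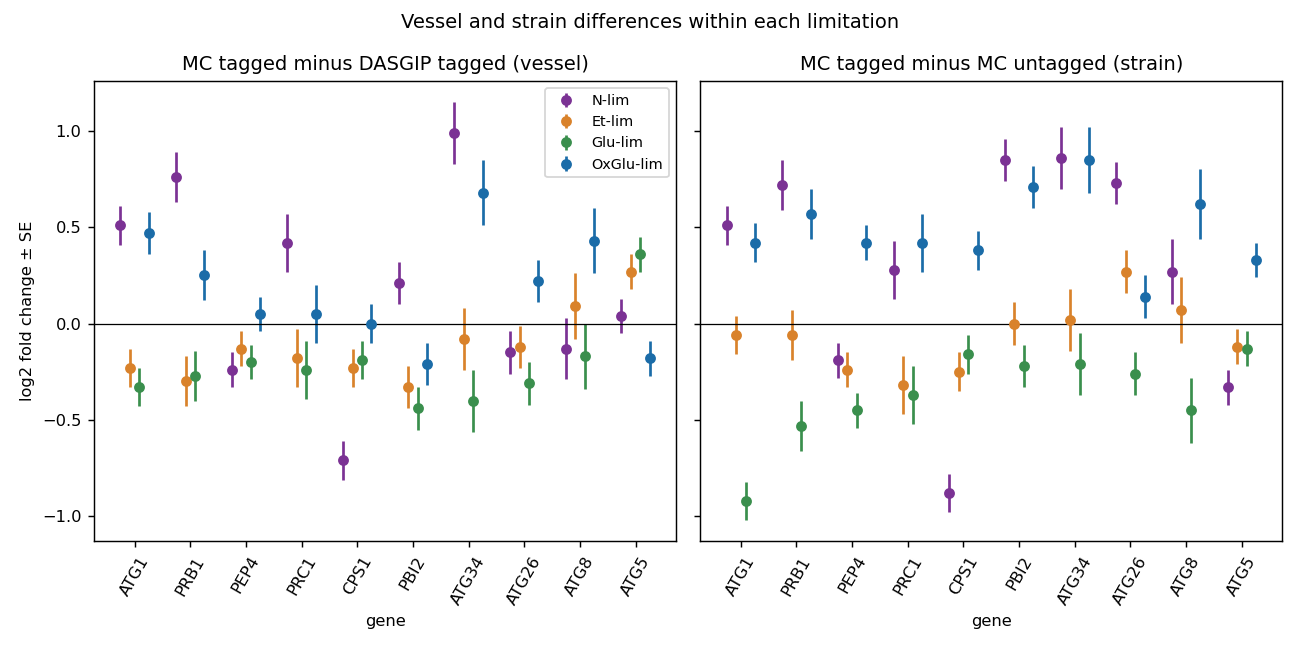
Log2 fold change with SE of 10 genes between vessels (left, MC tagged minus DASGIP tagged) and between strains (right, MC tagged minus MC untagged), with a point per feed. ATG34 and PRB1 lie above 0 in N-lim in both panels, CPS1 lies below 0 in N-lim in both, and ATG1 lies below 0 in Glu-lim and above it in N-lim and OxGlu-lim; both panels use the same MC tagged libraries.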

How the data were processed

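Total RNA from 36 chemostat cultures was sequenced after removal of ribosomal RNA with a stranded kit, per the labels' protocols. The deposited values are raw read counts per gene line, per the file headers, in 3 tables of 7122 lines. The submitters' processing notes name Bowtie2, SAMtools, bedtools and genome build R64, whereas how reads were assigned to genes, and whether strand was used, is not given in the sources used here. Another 60 per-sample columns in the tables were not used, and 4 lines in each table were empty here and are not analysed.

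Counts were filtered with filterByExpr (6612 genes kept, among them all 34 described). The kept genes were then scaled by TMM and fitted as 12 group means with edgeR 4.0.16 in R 4.3.3. Contrasts were tested by its quasi-likelihood F test with 24 residual degrees of freedom, and p-values were adjusted by Benjamini-Hochberg over all 6612 genes, with 0.05 as threshold. The SE is the size of the log2 change divided by the square root of F. Adjusted p-values in the text come from this fit unless DESeq2 1.42.0 is named. The fit was tested on simulated data in which few genes changed, as many up as down, so that test cannot judge the scaling. Replicate libraries differed by more than counting error (chi-square per degree of freedom 5.5 to 155), so none was counted as a repeat. Nothing in the labels ties a replicate to a separate day or inoculum, and the p-values measure the spread between these cultures.

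The genes and lists were chosen with earlier results of these data known. Values are given in full for the 6 genes chosen by name, for ATG1, ATG8, ATG9 and ATG13, for the 5 highest and 5 lowest called genes of each comparison with Glu-lim, for the 3 largest called mean vessel and strain differences and the 2 largest in each feed, and for the called genes at either end of each list. Promoters and gene positions come from the RefSeq annotation of R64, which matched 6045 lines. Alternatives were other scaling factors, filters, DESeq2, fits on the compared libraries alone, replicate blocks and leaving out each library.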

Additional observations from a re-analysis of the deposited data

Results flagged for a closer look

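The difference between vessels varied with the feed for 12 of the 34 genes by edgeR's interaction test, against 24.1% of all genes. The adjusted p was 5.46e-05 for ATG1, 0.000107 for ATG23, 0.000122 for ATG34, 0.000188 for PRB1, 0.00208 for CPS1 and 0.00709 for ATG5. It was 0.0105 for PBI2, 0.0127 for ATG17, 0.0147 for ATG11, 0.0259 for ATG7, 0.0362 for ATG20 and 0.0491 for ATG19.

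The difference between strains varied with the feed for 23 genes, against 47.7% of all genes. The adjusted p was 9.67e-08 for ATG1, 1.74e-06 for CPS1, 6.83e-06 for PBI2, 1.89e-05 for PRB1, 2.65e-05 for PEP4, 0.000161 for ATG26 and 0.000377 for ATG34. Next came ATG5 with 0.00106, ATG20 with 0.00157, PRC1 with 0.00351, ATG8 with 0.00472, ATG22 with 0.00616, ATG19 with 0.00686 and ATG29 with 0.00835. For the remaining genes it was 0.0112 for ATG9, 0.0127 for ATG3, 0.0155 for ATG4, 0.0165 for ATG33, 0.0229 for ATG21, 0.0244 for ATG32, 0.0247 for ATG27, 0.0352 for ATG7 and 0.0455 for ATG13. Both tests use the MC tagged libraries. Groups of 3 were not tested for single libraries that stand apart.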

How the results depend on the processing

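Scaling decided more of these counts than any other setting tried. With library totals alone the numbers higher and lower were 23 and 5 for N-lim against Glu-lim, 1 and 23 for Et-lim against Glu-lim, 30 and 1 for N-lim against Et-lim, and 9 and 16 for Et-lim against OxGlu-lim, and 8 were higher for OxGlu-lim against Glu-lim. Called in each of the 3 sets were then 9 higher and 1 lower in N-lim, 0 and 4 in Et-lim, and 1 and 5 in OxGlu-lim. The mean strain comparison gave 26 higher and 0 lower, the mean vessel comparison 1 and 6, and the strain difference varied with the feed for 15 genes. Within feeds, strain calls were 7 in Et-lim and 3 in Glu-lim, and vessel calls 0 in Et-lim, 15 in Glu-lim and 5 in N-lim. Of the single-gene values chosen by the rule stated above, 8 that were called with TMM or with library totals changed direction in a comparison with Glu-lim. In N-lim these were ATG8 (0.33), ATG9 (0.09), PBI2 (0.40), PEP4 (0.36) and PRC1 (0.26). In Et-lim they were ATG19 (-0.01) and PEP4 (-0.04), and in OxGlu-lim ATG13 (0.06). PRC1 in Et-lim also changed sign, to -0.08, but was called with neither scaling. Other genes called under TMM scaling changed direction too. In N-lim they were ATG3 (0.20), ATG5 (0.05), ATG10 (0.21), ATG17 (0.28), ATG20 (0.24) and ATG22 (0.22). In Et-lim they were ATG11 (-0.03) and ATG27 (-0.05). In OxGlu-lim they were ATG4 (0.08), ATG11 (0.03), ATG16 (0.04), ATG19 (0.14) and ATG21 (0.13). Library totals do not centre most genes on no change, as TMM does. Upper-quartile factors gave 12 higher in the mean strain comparison, 4 strain calls in Glu-lim, 2 vessel calls in Glu-lim and 1 gene lower in Et-lim than in OxGlu-lim.

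The 2 vessel calls in Et-lim, PBI2 and ATG5, became 1 with DESeq2, RLE factors, upper-quartile factors, no filter on low counts, nuclear reading frames only or the replicate block by number, and 0 with the compared libraries alone. The compared libraries alone also gave 10 vessel calls in Glu-lim and 4 in N-lim, and 2 genes lower in the mean strain comparison, as did DESeq2. The cause was not tested.

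Replicate numbers were not taken to pair the libraries in the fit used here. Deviations of same-numbered libraries from their group means correlated between -0.178 and 0.293 across feeds within a set, over 0.1 in 12 of 54 pairs. Across sets within a feed they correlated between -0.358 and 0.193, over 0.1 in 4 of 24. Pairs with different numbers were over 0.1 in 14 of 108 across feeds and in 10 of 48 across sets. The replicate block by number kept the counts against Glu-lim at 5 and 15, 8 and 14, and 0 and 26, and the block within set gave 16, 15 and 27 lower.

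Leaving out each library in turn gave 3 to 8 strain calls in Glu-lim, 10 to 18 in OxGlu-lim, 0 to 2 vessel calls in Et-lim, 2 to 5 in Glu-lim and 5 to 9 in N-lim. It gave 1 to 3 genes lower in each set for Et-lim against Glu-lim, 0 to 3 lower in Et-lim than in OxGlu-lim, 3 to 5 lower in N-lim than in OxGlu-lim, and 1 to 2 lower in the mean strain comparison. The counts against Glu-lim stayed at 5 higher and 13 to 16 lower in N-lim, 8 and 12 to 17 in Et-lim, and 0 and 22 to 27 in OxGlu-lim. Over 1452 single-gene values with a library left out, 15 lost their call and 12 gained one. Of values called with or without the library, 0 changed direction, and changes of sign in values called in neither fit were not counted. The lowest count of these genes in any library was 56, and the effect of depth was not tested.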
